A study of Sus scrofa with 6 samples.

Results

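Translation initiation factors, the eIF proteins that bring the ribosome to the start codon of a messenger RNA, were followed in porcine embryos depleted of SIN3A. Members were all rows of the deposited table whose gene name begins with EIF and a digit from 1 to 6, with EIF4E1B left out. This gave 41 of the 17678 genes in the table, and 36 of them reached a mean value of 10 across the 6 libraries and were tested. The names also bring in 3 kinases that phosphorylate eIF2 and 4 proteins that bind eIF4E, so that inhibitors of initiation are described beside the factors themselves. Oocytes of crossbred pigs (Landrace, Yorkshire and Duroc) were matured in vitro and injected at the MII stage with non-specific siRNA (NC) or with siRNAs to different sites of SIN3A (SIN3A_KD, here KD), and then activated without sperm. Both groups are therefore parthenogenetic and carry no paternal genome. In both, activation was by electric pulses, followed by incubation with cycloheximide and cytochalasin B. At 32 h after activation, 20 embryos at the 2-cell stage were pooled for each replicate, with 3 replicates per group. Messenger RNA was selected with oligo(dT) beads and sequenced, and the values are read estimates per gene that the authors normalized between libraries. Such selection acts through the poly(A) tail. Tail length was not measured, so the values describe captured mRNA, which need not be all mRNA of a gene.

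Initiation begins when eIF2, loaded with GTP and the initiator tRNA, joins eIF1, eIF1A, eIF3 and eIF5 on the small ribosomal subunit. The cap-binding complex eIF4F (eIF4E, the scaffold eIF4G and the helicase eIF4A) recruits this assembly to the mRNA, which it scans until a start codon is recognised. eIF5B then joins the large subunit. Phosphorylation of eIF2 blocks its recycling by the exchange factor eIF2B, and 4E-binding proteins keep eIF4E away from eIF4G. A fully grown oocyte and an embryo before genome activation depend on stored maternal mRNA, so that control of initiation sets much of their protein output. EIF1AX is often used as a marker of embryonic genome activation in livestock. The authors place this activation in pigs after the 2-cell stage, the stage sampled here.

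The scanning ribosome reads the bases around the start codon, and eIF1 and eIF1A set how strictly it does so. The start codon contexts of 6 members are shown because these factors act on such sequences and because the mRNA of EIF1 is known for a poor context of its own. Each is written from 9 bases before the start codon to the base after it, 5′ to 3′, from RefSeq transcripts on the Sscrofa11.1 genome. Capitals mark the base at position -3, the ATG and the base at position 4, counted from the A of the start codon as 1.
EIF1: tcgtatCgtATGT
EIF1AX: gtcaccGccATGC
EIF3A: gccgccAagATGC
EIF4A1: ctaaggAtcATGT
EIF4A2: ctttggAtcATGT
EIF5B: tgacacAggATGG
These windows lie at chr12:20976909-20976921 on the minus strand for EIF1, chrX:16449365-16449377 on the minus strand for EIF1AX and chr14:129006970-129006982 on the minus strand for EIF3A. Those of EIF4A1 at chr12:52868484-52868496 and EIF4A2 at chr13:124583088-124583100 are on the plus strand, and that of EIF5B at chr3:54930601-54930613 is on the minus strand. A context was called strong where it read ANNATGG or GNNATGG on the mRNA strand, and weak where it had neither the purine nor the G. Of 38 members with a context in RefSeq, 16 (42.1%) had a strong one, against 43.3% of 9278 tested genes with a context. EIF1 alone among the 38 had a weak one (2.63%), against 9.0% of the tested genes. These are matches of letters in the annotated transcripts, and initiation itself was not measured.

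The targeted gene was checked first. SIN3A had values of 37361, 33964 and 32404 in NC and of 3271, 1079 and 4173 in KD replicates 1 to 3. All KD values were far below the NC values, at a log2 fold change of -3.81 with a standard error of 0.31 (limma, adjusted p = 8.45e-06 by the Benjamini-Hochberg method). The spacing of low values gave an estimated depth between 7820000 and 12900000 reads for NC and between 10200000 and 15800000 for KD. Of 10 oocyte markers 8 were found by name, and they summed to 29563 to 33439 in NC and 30936 to 35466 in KD libraries. Of 10 markers of cumulus and granulosa cells 7 were found, and they summed to 17.3 to 28.7 in NC and 18.5 to 64.7 in KD libraries. None of the 7 was at 0 in every library, and their part in the results was not tested. In pooled embryos, fewer cells of a type and less RNA of a gene per cell of that type cannot be told apart.

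No initiation factor passed an adjusted p of 0.05 in KD against NC embryos. By limma on log2(value + 1), adjusted over all 11986 genes tested, 0 of 36 tested members were called, where 0.159% of all tested genes were (0.0584% higher and 0.1% lower in KD). At an unadjusted p below 0.05 there were 2 members, EIF4A2 and EIF3A (5.56%), against 4.61% of all tested genes. Log2 fold changes above 0 were found for 19 members and below 0 for 17. Their median was 0.016, and that of all tested genes was 0.0026. The changes ranged from -0.41 for EIF4A2 to 0.42 for EIF3K, and 0 members reached 0.8 in either direction, the size of change the authors asked for. For 24 of the 36 the 95% confidence interval lay within 0.5 of 0 on the log2 scale, and for 32 within 0.8. The intervals are not adjusted for the number of genes tested. Those of EIF4A2 and EIF3A did not hold 0, yet neither gene was called. With 3 replicates per group, changes as large as those of these genes, or smaller, could go uncalled.

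**Figure D1:**
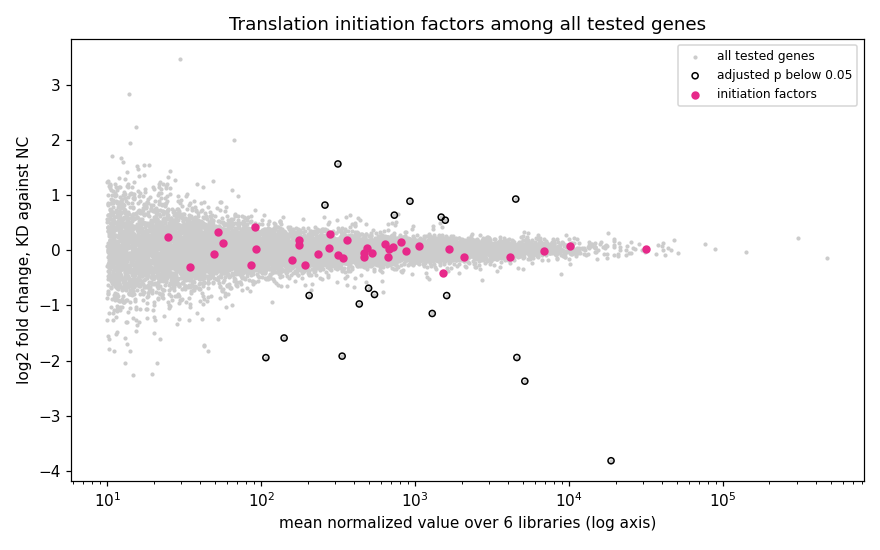
Log2 fold change of KD against NC (limma) for 11986 tested genes, plotted against the mean normalized value over 6 libraries on a log axis. Grey points are all tested genes, open circles the 19 with an adjusted p below 0.05, and filled points the 36 initiation factors, which lie between -0.41 and 0.42.

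**Figure D2:**
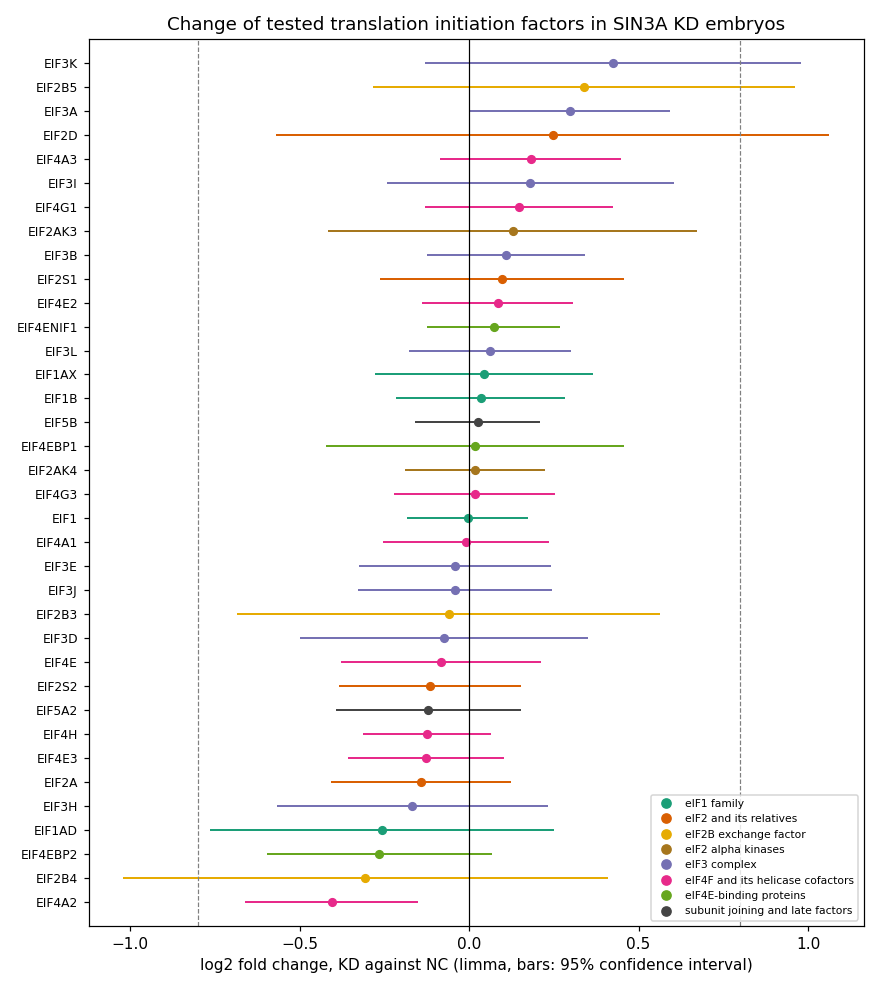
Log2 fold change of each tested initiation factor, with bars for the 95% confidence interval of limma and colours for the role. Dashed lines mark 0.8 in either direction. The intervals of 34 of the 36 members hold 0; those of EIF4A2 and EIF3A do not.

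The groups did not overlap for 4 of the 36 tested members, while they did not for 9.79% of all tested genes. KD was below NC for EIF4A2, EIF2A and EIF4EBP2, where 4.94% of all tested genes lay below, and above NC for EIF3A, where 4.85% lay above. Groups of 3 that do not overlap always give a two-sided p of 0.1 in the exact permutation test, the smallest possible. That p therefore adds nothing for these genes.

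Transcripts of the 41 members held 0.582% to 0.630% of a library's summed values, with both ends of this range in KD libraries. EIF4E1B and 5 initiation factors without a name in the deposited data are not in these sums. The highest of those 5 was EIF4G2, which averaged 15291 in NC and 15299 in KD embryos. EIF5B alone made up 43.7% to 49.7% of their sum. The summed values of the 41 members were 71146, 67429 and 66055 in NC and 66908, 68301 and 70554 in KD replicates 1 to 3. These groups overlapped. Without EIF5B the sum was 38777, 36228 and 35468 in NC and 37638, 36629 and 35479 in KD replicates 1 to 3.

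Levels of different genes were compared per length, as normalized value per kb of the RefSeq transcript with the longest coding sequence. That length need not be the length of the transcripts to which the authors assigned reads. A mismatch would shift a gene alike in every library, so the ranges over libraries do not show it. Only members under the name rule were ranked, so EIF4E1B and the abundant but unnamed EIF4G2 are not placed. Of the members, the large-subunit joining factor EIF5B stood highest, at 5516 per kb, with a range over the 6 libraries of 5094 to 6104. EIF1, which guards start codon choice, was next at 5243 per kb (4949 to 5584), and their ranges overlapped. EIF4ENIF1, the eIF4E transporter that holds mRNAs in a silent state, was at 2773 per kb (2493 to 3001), below both in every library. Then came the helicase cofactor EIF4H at 1617 per kb (1458 to 1804) and the beta subunit of eIF2, EIF2S2, at 1423 per kb (1086 to 1687), which overlapped. Below them EIF4E2, EIF4A2 and EIF1B lay between 836 and 940 per kb with overlapping ranges. The lowest tested members were EIF2D at 12.2 and EIF2AK3 at 12.0 per kb. Transcripts with long untranslated parts rank lower on this scale than per kb of coding sequence, where EIF1 led with 20006 and EIF5B followed with 8660. RefSeq gives no coding sequence for EIF2B4 and EIF3B, which it lists as non-coding transcripts, and their length is that of those transcripts.

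**Figure D3:**
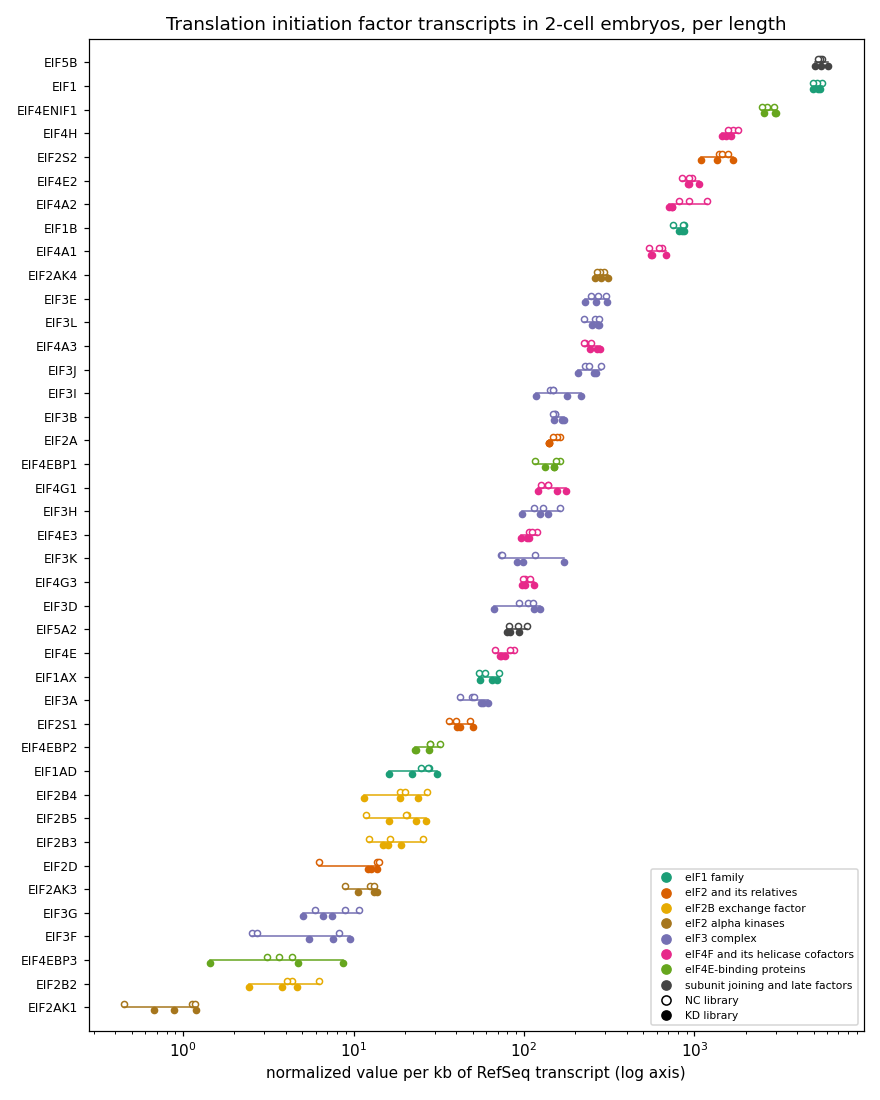
Normalized value per kb of RefSeq transcript on a log axis for all 41 initiation factors, ordered by their mean. Open circles are NC and filled circles KD libraries, lines span the 6 libraries, and colours give the role. Levels run from 0.917 per kb for EIF2AK1 to 5516 per kb for EIF5B, with NC and KD circles interleaved in most rows.

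In the eIF1 family, where eIF1 and eIF1A govern scanning and start codon choice, none of the 4 members was called and the groups overlapped for each. EIF1 had values of 7287, 6819 and 6458 in NC and of 7076, 6902 and 6512 in KD replicates 1 to 3. The groups overlapped, and the log2 fold change was -0.004 (95% confidence interval -0.18 to 0.17). EIF1AX (ENSSSCG00000032223), the X-linked gene of eIF1A, lies at chrX:16429625-16449581. Its values were 318, 241 and 261 in NC and 309, 245 and 290 in KD replicates 1 to 3. In both groups replicate 1 was highest and replicate 2 lowest, and the groups overlapped throughout. NC embryos averaged 273 ± 39.8 and KD embryos 281 ± 33.1 (SD, n = 3 each). EIF1AX thus differed by 0.04 on the log2 scale, with a standard error of 0.15 and a 95% confidence interval of -0.27 to 0.36 (limma, adjusted p = 0.997; two-sided exact permutation p = 0.9). Its RefSeq transcript shared 29 words of 31 bases with that of the Y-linked copy EIF1AY, which was not found by name. Embryos without a paternal genome carry no Y chromosome, so reads from the shared stretch cannot come from EIF1AY. Whether any of them were assigned to EIF1AY was not tested. EIF1B, a close relative of EIF1, had 478 ± 36.3 in NC and 488 ± 16.6 in KD embryos (SD, n = 3 each). EIF1AD, named for its eIF1A domain, had 86.5, 96.4 and 94.2 in NC and 107, 76.1 and 56.0 in KD replicates 1 to 3. Its KD values lay on both sides of the NC values, with a log2 fold change of -0.26 (95% confidence interval -0.76 to 0.25). It was -0.031 without KD replicate 3 and -0.49 without KD replicate 1.

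Among eIF2 and its relatives, which deliver the initiator tRNA, no member was called. EIF2S2, the beta subunit, had the highest values, at 2044, 2127 and 2299 in NC and 1990, 1595 and 2476 in KD replicates 1 to 3. The KD values reached beyond the NC values at both ends, and the log2 fold change was -0.12 (95% confidence interval -0.38 to 0.15). EIF2S1, the alpha subunit that carries the regulatory phosphorylation site, had 170 ± 25.4 in NC and 181 ± 21.1 in KD embryos (SD, n = 3 each). Per kb, EIF2S1 stood at 43.0 and EIF2S2 at 1423, so the captured transcripts of these subunits of one complex were not at equal levels.

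EIF2A (ENSSSCG00000011710; chr13:90761453-90804274) encodes a separate initiator tRNA-binding protein that is no subunit of eIF2. Its values were 373, 357 and 339 in NC and 322, 323 and 322 in KD replicates 1 to 3. Each KD value was below each NC value, and the KD values were close together. The difference was -0.14 on the log2 scale, with a standard error of 0.12 and a 95% confidence interval of -0.41 to 0.12 (limma, adjusted p = 0.997). EIF2D, which can place initiator tRNA without eIF2, was low, with 28.2, 29.0 and 12.9 in NC and 26, 28 and 24.9 in KD replicates 1 to 3. NC replicate 3 stood apart, and the log2 fold change of 0.25 had a 95% confidence interval of -0.57 to 1.06. It was -0.12 without NC replicate 3.

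The exchange factor eIF2B, which reloads eIF2 with GTP, had low transcript levels and wide intervals. EIF2B2 had a mean below 10 and was not tested, with 3.80 to 9.70 over the 6 libraries. EIF2B5, the catalytic epsilon subunit, had 54.5, 31.3 and 53.9 in NC and 43.0, 62.0 and 70.9 in KD replicates 1 to 3, a log2 fold change of 0.34 (95% confidence interval -0.28 to 0.96). EIF2B4, the delta subunit, had 46.2, 32.3 and 34.3 in NC and 41.3, 32.4 and 19.8 in KD replicates 1 to 3, a log2 fold change of -0.31 (95% confidence interval -1.02 to 0.41). The groups overlapped for both genes, and single libraries set the size of both changes. EIF2B5 was at 0.081 without NC replicate 2, 0.19 without KD replicate 3 and 0.54 without KD replicate 1. EIF2B4 was at -0.023 without KD replicate 3, -0.15 without NC replicate 1 and -0.53 without KD replicate 1. EIF2B3, the gamma subunit, had 51.8 ± 19.4 in NC and 47.7 ± 6.24 in KD embryos (SD, n = 3 each).

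Of the kinases that phosphorylate the alpha subunit of eIF2, EIF2AK4 (GCN2, the sensor of uncharged tRNA) was by far the most abundant. It had values of 1728, 1642 and 1576 in NC and 1666, 1821 and 1526 in KD replicates 1 to 3. The groups overlapped, with a log2 fold change of 0.017 (95% confidence interval -0.19 to 0.22). EIF2AK3 (PERK, the kinase of endoplasmic reticulum stress) had 53.9 ± 10.8 in NC and 58.5 ± 8.0 in KD embryos (SD, n = 3 each). EIF2AK1 (HRI, the kinase regulated by haem) was not tested, with 2.93 to 7.79 over the 6 libraries.

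The eIF3 complex, the largest of the factors and the platform for the others on the small subunit, was represented by 11 subunits. Of these 9 were tested and 0 were called, with 5 log2 fold changes above 0 and 4 below, and a median of 0.062. Among these 9, EIF3L had the highest values, 700 ± 70.6 in NC and 729 ± 35.4 in KD embryos (SD, n = 3 each). It differed on the log2 scale by 0.06 (95% confidence interval -0.17 to 0.30). The subunit EIF3M has no name in the deposited data and so falls outside the rule. Its values were higher, at 1059 ± 195 in NC and 1021 ± 72.1 in KD embryos (SD, n = 3 each). Per kb the 9 tested members ranged from 53.0 for EIF3A to 270 for EIF3E. EIF3E, EIF3L and EIF3J lay between 247 and 270 per kb and overlapped. EIF3F and EIF3G were not tested: EIF3F had 3.14 to 12.0 and EIF3G had 5.84 to 12.5 over the 6 libraries, although their proteins are subunits of the same complex.

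EIF3A (ENSSSCG00000010679; chr14:128967645-129007168) encodes the largest subunit, around which the complex is built. Its values were 263, 272 and 224 in NC and 328, 306 and 298 in KD replicates 1 to 3. Each KD value was above each NC value. NC embryos averaged 253 ± 25.5 and KD embryos 310.4 ± 15.5 (SD, n = 3 each). EIF3A differed by 0.30 on the log2 scale (standard error 0.14, 95% confidence interval 0.006 to 0.59), with an unadjusted p of 0.046 and an adjusted p of 0.997 from limma.

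Other eIF3 subunits varied more between KD replicates. EIF3K had 102, 64.4 and 65.5 in NC and 150, 80.3 and 87.0 in KD replicates 1 to 3. Replicate 1 was the highest of its group in both, and the log2 fold change of 0.42 had a 95% confidence interval of -0.13 to 0.98. It was 0.15 without KD replicate 1 and 0.64 without NC replicate 1. EIF3I, at chr6:88695926-88705083, had 164, 156 and 163 in NC and 197, 239 and 129 in KD replicates 1 to 3. The KD values lay on both sides of the closely spaced NC values, with a log2 fold change of 0.18 (95% confidence interval -0.24 to 0.60). EIF3H had 200, 140 and 160 in NC and 171, 154 and 120 in KD replicates 1 to 3, a log2 fold change of -0.17 (95% confidence interval -0.57 to 0.23). It was -0.024 without KD replicate 3, -0.029 without NC replicate 1, -0.28 without KD replicate 1 and -0.28 without NC replicate 2. EIF3D, the subunit that can itself bind the cap of some mRNAs, had 235 ± 22.5 in NC and 231 ± 70.4 in KD embryos (SD, n = 3 each), with KD replicate 3 lowest at 151.

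The cap-binding complex eIF4F and its cofactors were represented by 9 members, all tested. No member was called, with 4 log2 fold changes above 0 and 5 below and a median of -0.009. The member with the lowest p was EIF4A2 (ENSSSCG00000011803; chr13:124582822-124589296), an RNA helicase and a paralogue of EIF4A1. EIF4A2 had values of 2101, 1656 and 1434 in NC and 1306, 1257 and 1304 in KD replicates 1 to 3. Each KD value was below each NC value, and the NC values spread much more widely than the KD values. NC embryos averaged 1729.9 ± 339.8 and KD embryos 1289 ± 27.8 (SD, n = 3 each). EIF4A2 differed by -0.41 on the log2 scale (standard error 0.12, 95% confidence interval -0.66 to -0.15), with an unadjusted p of 0.0035 and an adjusted p of 0.569 from limma. Over the alternatives run the adjusted p lay between 0.183 and 1.0. NC replicate 1 weighed most: without it the log2 fold change was -0.26, and without NC replicate 3 it was -0.53.

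EIF4A1 had 937, 895 and 781 in NC and 981, 818 and 801 in KD replicates 1 to 3. The groups overlapped, with a log2 fold change of -0.009 (95% confidence interval -0.25 to 0.23). Per kb, EIF4A2 stood at 851 (709 to 1185) and EIF4A1 at 600 (540 to 678), with no overlap over the 6 libraries. The ratio of the value of EIF4A2 to that of EIF4A1, which was chosen after the values were seen and does not depend on scaling between libraries, was 2.24, 1.85 and 1.84 in NC and 1.33, 1.54 and 1.63 in KD replicates 1 to 3. NC embryos averaged 1.98 ± 0.23 and KD embryos 1.5 ± 0.15 (SD, n = 3 each). Every KD ratio was below every NC ratio, as was already so for the values of EIF4A2 alone. The two-sided p of 0.1 in the exact permutation test follows from that separation and adds nothing to it. The RefSeq transcripts of both genes shared 0 words of 31 bases.

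**Figure D4:**
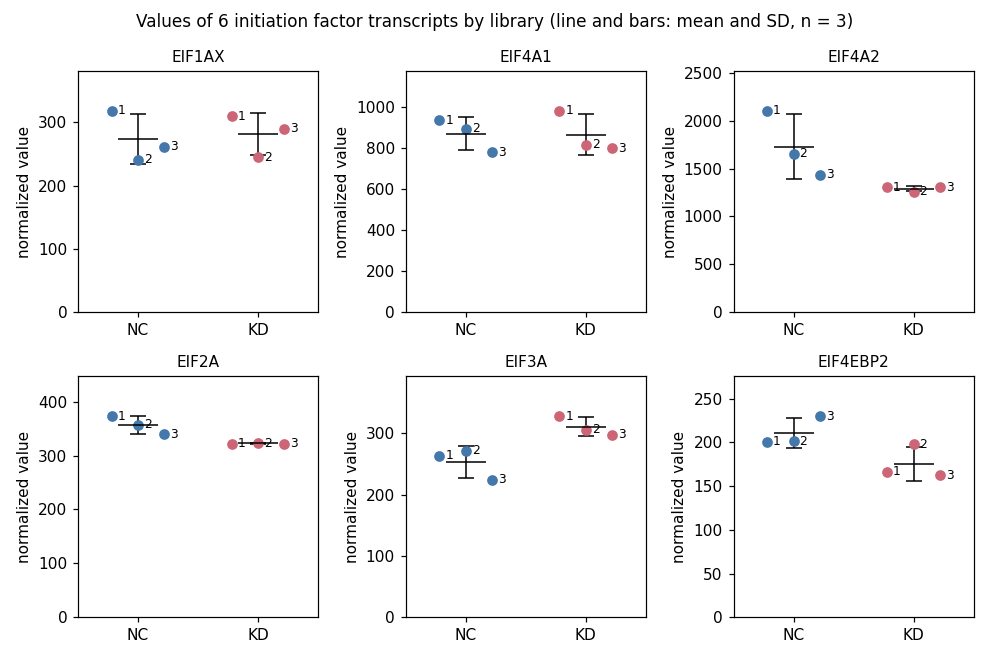
Normalized values by library for EIF1AX, EIF4A1, EIF4A2, EIF2A, EIF3A and EIF4EBP2, on linear axes from 0. Points are libraries with their replicate number, and lines and bars give the mean and SD of 3 replicates. EIF4A2, EIF2A and EIF4EBP2 lay lower and EIF3A higher in each KD library, while EIF1AX and EIF4A1 overlapped.

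EIF4A3, the helicase paralogue of the exon junction complex, had 358, 333 and 327 in NC and 391, 407 and 358 in KD replicates 1 to 3. The lowest KD and highest NC values met, and the log2 fold change was 0.18 (95% confidence interval -0.08 to 0.45). EIF4H, which stimulates the helicase, had 4308, 4041 and 4627 in NC and 3941, 3740 and 4225 in KD replicates 1 to 3, with overlapping groups and a log2 fold change of -0.12 (95% confidence interval -0.31 to 0.06).

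EIF4E1B, left out by the rule, is missing from this comparison of cap-binding proteins. Among those included, EIF4E2, a homologue known for repressing translation, stood highest per kb at 940. EIF4E3 followed at 108 and the classical EIF4E at 76.9, with no overlap between the 3 over the libraries. Per kb of coding sequence EIF4E2 was at 1429, EIF4E3 at 996 and EIF4E at 379, in the same order. EIF4E had 324 ± 43.1 in NC and 304 ± 12.4 in KD embryos (SD, n = 3 each), and EIF4E2 had 1024 ± 73.5 and 1086 ± 89.2. The scaffolds EIF4G1 and EIF4G3 had log2 fold changes of 0.15 and 0.016, with 95% confidence intervals of -0.13 to 0.42 and -0.22 to 0.25. Per kb EIF4G1 stood at 143 (120 to 176) and EIF4G3 at 104 (97.2 to 115), without overlap over the 6 libraries.

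Of the proteins that bind eIF4E and limit its use, EIF4ENIF1 was the most abundant. It had 10659, 9730 and 9050 in NC and 10892, 10802 and 9271 in KD replicates 1 to 3, with overlapping groups and a log2 fold change of 0.07 (95% confidence interval -0.12 to 0.26). EIF4EBP2 (ENSSSCG00000034444; chr14:73323609-73355443), a 4E-binding protein controlled by TOR, had 201, 201 and 230 in NC and 166, 198 and 163 in KD replicates 1 to 3. Each KD value was below each NC value, though KD replicate 2 was close to the lowest NC value. EIF4EBP2 differed by -0.26 on the log2 scale, with a standard error of 0.16 and a 95% confidence interval of -0.59 to 0.07 (limma, adjusted p = 0.997). EIF4EBP1 had 92.3 ± 15.9 in NC and 92.6 ± 6.0 in KD embryos (SD, n = 3 each). EIF4EBP3 was not tested, with 0.978 to 5.87 over the 6 libraries.

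EIF5B, the GTPase of subunit joining, had 32369, 31200 and 30587 in NC and 29270, 31673 and 35075 in KD replicates 1 to 3. The KD values reached beyond the NC values at both ends, with a log2 fold change of 0.025 (95% confidence interval -0.16 to 0.21). EIF5A2, an isoform of the hypusine-containing factor, had 487 ± 60.4 in NC and 447 ± 37.2 in KD embryos (SD, n = 3 each), differing on the log2 scale by -0.12 (95% confidence interval -0.39 to 0.15).

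Of a list of 46 other translation genes 40 were found by name, 38 were tested and 0 were called by limma in either direction. At an unadjusted p below 0.05 were 3 of the 38, PABPC1, DDX3X and BZW2, against 4.61% of all tested genes. The groups did not overlap for 5 of the 38, with KD above NC for DNAJC3, GCN1 and DDX3X and below for PABPC1 and BZW2, against 9.79% of all tested genes. All of these were picked by their values, PABPC1 under the rule of the 3 largest changes among related genes. PABPC1, the somatic poly(A)-binding protein, had 32.1, 55.6 and 31.2 in NC and 22.7, 17.7 and 19.7 in KD replicates 1 to 3. Each KD value was below each NC value, a difference of -0.91 on the log2 scale with a standard error of 0.35 and a 95% confidence interval of -1.64 to -0.17 (limma, adjusted p = 0.971). PABPC1 was the 1 gene of the list beyond 0.8, and without NC replicate 2 it was at -0.64. Its relative PABPC1L was far more abundant, with 1916 ± 149 in NC and 2045 ± 225 in KD embryos (SD, n = 3 each). The groups overlapped for PABPC1L, with a log2 fold change of 0.09 (95% confidence interval -0.12 to 0.31). DHX29, a scanning helicase, had a log2 fold change of -0.40 (95% confidence interval -0.96 to 0.15), which was -0.17 without KD replicate 2 and -0.23 without NC replicate 1. PPP1R15A, the stress-induced subunit of the eIF2 phosphatase, had one of -0.37 (95% confidence interval -0.84 to 0.11), which was -0.21 without KD replicate 1. DDX3X, a helicase that aids scanning, had 5720 ± 867 in NC and 6895 ± 21.9 in KD embryos (SD, n = 3 each), differing on the log2 scale by 0.28 with an adjusted p of 0.852 from limma. BZW2, an eIF5 mimic, had 346 ± 58.5 in NC and 273 ± 25.2 in KD embryos (SD, n = 3 each), differing on the log2 scale by -0.33 with an adjusted p of 0.997 from limma.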

How the data were processed

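The authors assigned reads to Sscrofa11.1 transcripts with Salmon 0.14.1 and deposited the estimates as signal normalized between libraries, 1 value per Ensembl gene and library, neither raw counts nor divided by length. Sample titles gave the groups and the replicate numbers. That replicates are independent comes from the study's account of its experiments. Values entered limma (version 3.58.1, R 4.3.3) as log2(value + 1) for genes averaging 10 or more, with a variance trend and Benjamini-Hochberg adjustment over all tested genes. Fold changes on this scale understate changes of low genes. Single genes were also compared with the exact permutation test of scipy 1.17.1. The script was tested on simulated data. Transcript lengths, positions and start codon contexts came from RefSeq, where all 41 members matched by symbol. Depth was estimated from the spacing of low values, which were not all whole multiples of it, so no count test was run. The 36 tested members had at least 15.0 estimated reads in each library, and low values are the least precise. The spike-in mRNAs were not used here, so total mRNA per embryo could not be assessed.

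Members and lists were chosen with earlier results of these data known. Genes named in full were EIF1AX, the most abundant tested member of each role, the 6 highest and 6 lowest log2 fold changes, members whose groups did not overlap, members not tested, and the 3 largest changes among related genes. Other members were added as examples of their role. Alternative settings changed the pseudocount (0.1 or 10), the filter (none, or a mean of 100), the scaling (TMM-like factors or quantile normalization), the variance trend (off), the pairing (replicate block) and the libraries (each left out in turn).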

Additional observations from a re-analysis of the deposited data

How the results depend on the processing

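None of the initiation factors and none of the related genes passed an adjusted p of 0.05 by limma in any alternative run. The median log2 fold change of the initiation factors stayed between -0.023 and 0.029. Over all genes 19 were called, 11 to 19 after leaving out any 1 library (12 without NC replicate 2 or 3, 11 without KD replicate 1 or 2), 26 with the replicate block, and 0 without the variance trend, where 622 had an unadjusted p below 0.05. Without that trend SIN3A had an adjusted p of 0.423 at a log2 fold change of -3.81. The cause was not tested. Leaving out each library in turn gave -4.20 to -3.22 for SIN3A.

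Of 328 comparisons of 24 named genes with an alternative, 316 kept direction and side of the threshold and 11 changed sign, each when one library was left out. These ranges were -0.041 to 0.16 for EIF1AX, -0.047 to 0.041 for EIF1, -0.021 to 0.12 for EIF3L, -0.047 to 0.080 for EIF2AK4, -0.12 to 0.44 for EIF2D, -0.27 to 0.043 for EIF2S2, -0.014 to 0.43 for EIF3I and -0.043 to 0.087 for EIF5B. Without changing sign, EIF4ENIF1 ranged over 0.016 to 0.15 and EIF4H over -0.17 to -0.074.

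Same-numbered NC and KD libraries had correlations of 0.087 to 0.11 after subtraction of the group means, and all 6 libraries correlated best with their own number, which is a hint from the data and not from the design. The replicate block moved the count from 19 to 26, and EIF4A2 had an adjusted p of 0.183 with it at a log2 fold change of -0.41.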

Other observations

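The deposited table gives 3575 genes without a name, and 5 of their identifiers carry an initiation factor symbol in an Ensembl name table, so they fall outside the name rule used above. EIF4G2 (ENSSSCG00000013405), a relative of the scaffold eIF4G that lacks the eIF4E-binding part, had 16723, 15405 and 13747 in NC and 14822, 16392 and 14683 in KD replicates 1 to 3. EIF4B (ENSSSCG00000032028), a helicase cofactor, had 1579 ± 17.2 in NC and 1525 ± 125 in KD embryos (SD, n = 3 each). EIF3M (ENSSSCG00000013315), an eIF3 subunit, had 1059 ± 195 and 1021 ± 72.1, and EIF2AK2 (ENSSSCG00000008496), the kinase PKR that responds to double-stranded RNA, had 311 ± 53.8 and 303 ± 65.0. EIF6 (ENSSSCG00000022864), which keeps the ribosomal subunits apart, had 50.1, 83.5 and 86.0 in NC and 45.8, 49.0 and 58.0 in KD replicates 1 to 3, with overlapping groups. Its log2 fold change was -0.48 (95% confidence interval -1.04 to 0.07, adjusted p = 0.997 from limma). None of the 5 had an unadjusted p below 0.05 in limma. EIF2S3, EIF2B1, EIF3C, EIF5 and EIF5A were found by neither name nor identifier and were not analysed here.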
